A study of Homo sapiens with 2 samples.

Results

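The genes described here are 9 transcription factors that direct the formation of myeloid blood cells: SPI1, CEBPA, CEBPB, CEBPE, RUNX1, IRF8, KLF4, MEF2C and MYB. They were looked up by symbol in a list of PAX-8 ChIP-Seq peaks, and every unique peak under one of these symbols was taken. This gave 36 of 45360 unique peaks, spread over 6 of the 9 factors. CEBPA, CEBPB and CEBPE had no peak under their symbol and are treated as unassigned.

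THP-1, a human line derived from a monocytic leukemia, was the cell source. PMA at 160 nmol/L for 24 h turned the cells into macrophages, and ox-LDL for 48 h turned these into foam cells, the lipid-laden macrophages of atherosclerotic plaques. The ox-LDL dose is 50 mg/mL in the sample labels, which differs in unit from the methods of the study. The foam cells were then treated with C18-3OH, a fatty acid made by gut bacteria. The list rests on 1 PAX-8 ChIP library and 1 Input library, the Input being chromatin that was not immunoprecipitated, and both came from C18-3OH-treated cells. No untreated cells entered it, so an effect of C18-3OH on the peaks could not be examined. The labels mention a repeat of the experiment, but with a single list there are no replicates and no test was made. Read totals of the libraries are not stated, so the sequencing depth is unknown, and intervals cover counting error only.

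Myeloid cells arise from blood stem cells through a small set of transcription factors that act in combination. SPI1, also called PU.1, and the C/EBP proteins open and activate the genes of monocytes and granulocytes, RUNX1 acts earlier in the stem cell and in many later steps, and IRF8, KLF4 and MEF2C take part in the choice between monocytes, granulocytes and other fates. MYB maintains immature progenitors and falls as myeloid cells mature. PAX-8 is a paired-box factor known mainly from thyroid, kidney and the reproductive tract, and its paired domain binds DNA that holds a core of the letters TCACGC. The question put to the data was where PAX-8 peaks lie around the genes of the myeloid factors.

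To show the DNA next to the start sites, the 250 bases upstream of a start were read from RefSeq promoters (GRCh38.p14), and TCACGC was searched on both strands, which also finds GCGTGA. KLF4 and RUNX1 are shown because each has a peak farther upstream in its promoter, and for MEF2C the 1 of its 7 windows that holds the letters is shown. IRF8, which also has a promoter peak, is not shown, because its 2 windows lie inside the gene rather than at its outermost start. Lower case marks bases without a match, capitals mark a match, and each run is written 5′ to 3′ along the gene. The KLF4 window is chr9:107489770-107490019, the RUNX1 window chr21:34888700-34888949 and the MEF2C window chr5:88904106-88904355, all on the minus strand.
KLF4: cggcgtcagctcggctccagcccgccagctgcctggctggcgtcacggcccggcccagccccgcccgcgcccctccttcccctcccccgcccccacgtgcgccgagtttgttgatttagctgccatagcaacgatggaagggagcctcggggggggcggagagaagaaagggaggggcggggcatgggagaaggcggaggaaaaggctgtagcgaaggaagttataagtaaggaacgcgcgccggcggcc
RUNX1: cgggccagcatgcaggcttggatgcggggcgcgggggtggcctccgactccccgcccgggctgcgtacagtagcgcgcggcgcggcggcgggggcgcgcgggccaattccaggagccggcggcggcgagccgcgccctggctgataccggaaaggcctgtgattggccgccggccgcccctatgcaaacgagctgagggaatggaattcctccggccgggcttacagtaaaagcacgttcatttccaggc
MEF2C: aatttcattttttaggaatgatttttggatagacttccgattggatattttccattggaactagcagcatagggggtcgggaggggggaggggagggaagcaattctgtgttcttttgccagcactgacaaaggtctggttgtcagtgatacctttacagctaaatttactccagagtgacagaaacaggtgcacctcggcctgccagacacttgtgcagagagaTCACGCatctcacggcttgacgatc

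The second start of CEBPB, which had no assigned peak, held 2 matches, and 30 bases around each are shown (chr20:50190609-50190638 and chr20:50190758-50190787, GRCh38.p14, plus strand).
CEBPB, match 209 bases before the start: ggtgggcaggggGCGTGAggccgcccctgc
CEBPB, match 60 bases before the start: cgggaggggccgGCGTGAcgcagcggttgc

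In MEF2C the match began 25 bases before the start. Of the 8 factors with a window in the table, MEF2C and CEBPB had a match, and KLF4, RUNX1, IRF8, CEBPA, CEBPE and MYB had none in these letters. Over all genes with a window, 7.99% had one. Genes differ in their number of windows, and counted by window 2 of the 16 of the factors held the letters (12.5%), beside 6.52% of all windows. A match is a description of the letters and not a binding site. On hg19, the nearest edge of the KLF4 promoter peak lay 1098 bp and that of the RUNX1 promoter peak 1624 bp before the listed start, both farther than the length of a window. The peaks are listed on hg19, whose sequence was not used here, so the bases under the peaks are not shown.

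An assigned peak was found at 6 of the factors, 66.7% of the 9 (Wilson 95% interval 35.4% to 87.9%), beside 54.9% of the 20037 protein-coding genes of the reference. A promoter peak, with its centre from -2000 to 1999 bp of a listed start, was found at RUNX1, IRF8 and KLF4, or 33.3% (12.1% to 64.6%), beside 13.4% of protein-coding genes. Both backgrounds lay inside the intervals of the 9 factors. The factors differed most in how many peaks they held and where. KLF4 had 15 peaks, RUNX1 10, MEF2C 5, and SPI1, IRF8 and MYB 2 each. The median protein-coding gene with a peak had 2. A count of 10 peaks or more was held by 2.31% of all protein-coding genes, and a count of 15 or more by 0.744%.

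**Figure D1:**
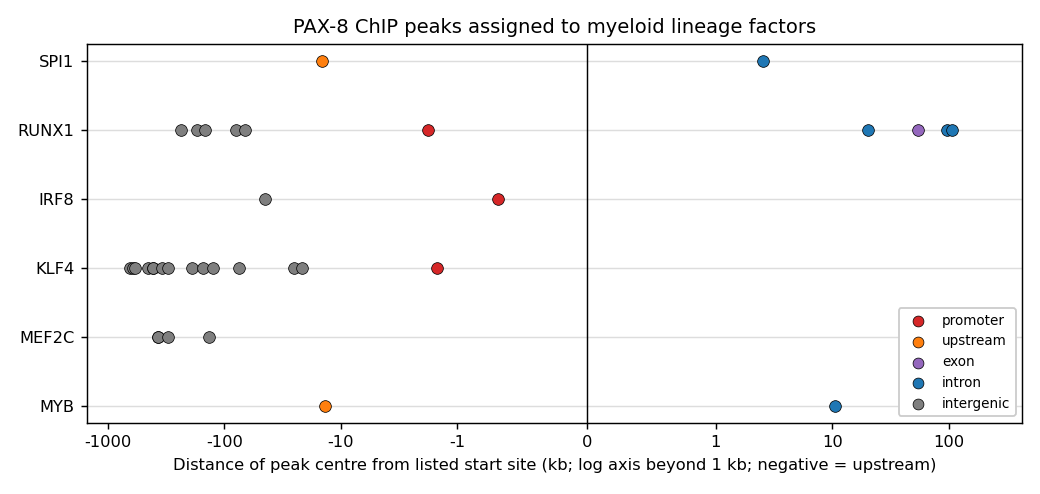
Distance of each of the 36 peak centres from the listed start site of its gene, in kb on an axis that is logarithmic beyond 1 kb, with upstream positions negative and 1 row per factor, coloured by the class in the list. KLF4 has all of its 15 peaks upstream, RUNX1 has peaks on both sides, and MEF2C has none within 100 kb.

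Within 100 kb of the nearest start listed with each peak lay 16 of the 36 peaks (44.4%, 29.5% to 60.4%), beside 73.1% of all peaks. Without KLF4 this was 12 of 21 (57.1%, 36.5% to 75.5%), an interval that holds the share of all peaks. Neither count holds the RUNX1 intron peak chr21:36315339-36315999, listed at 106 kb. That peak lay within 100 kb of the other listed start of RUNX1. The peaks of SPI1, IRF8 and MYB all lay within 100 kb, and none of MEF2C did. By class, 3 of the 36 were in promoters (8.33%, 2.87% to 21.8%, beside 7.48% of all peaks), 2 in the upstream class, which covers -20000 to -2002 bp, 2 in exons, 5 in introns and 24 between genes. The intergenic share was 66.7% (50.3% to 79.8%), beside 38.7% of all peaks. The intron share was 13.9% (6.08% to 28.7%), beside 34.9%. Of the 36 peaks, 29 lay upstream of the start (80.6%, 65.0% to 90.2%), beside 39.2% of all peaks. KLF4 supplied 15 of these, and without KLF4 14 of 21 peaks were upstream (66.7%, 45.4% to 82.8%). Without it, 10 were intergenic (47.6%, 28.3% to 67.6%) and 5 in introns (23.8%, 10.6% to 45.1%). The intergenic and intron intervals then held the shares of all peaks, while the upstream interval still lay above the 39.2% of all peaks. These intervals treat peaks as independent, although peaks of the same gene share a stretch of DNA. The upstream share also follows the list's assignment. The 6 peaks given to MIR6774 past the end of IRF8 are not counted. Intron peaks between the RUNX1 starts count as downstream, although they lay upstream of its other start. The median distance was 130 kb with KLF4 and 79.3 kb without it, beside 36.2 kb over the whole list.

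SPI1, the ETS-family factor that starts the macrophage programme, had 2 peaks, both close to the gene on chromosome 11. The peak at chr11:47397137-47397958, centred 2551 bp inside the first part of the gene and listed as intron, held 17 tags (exact Poisson 95% interval 9.90 to 27.2) at a fold enrichment of 8.17. The fold enrichment is the ratio given in the list, whose computation is not described in the sources. The other peak, at chr11:47414248-47414805, lay 14428 bp before the start with 15 tags and a fold enrichment of 11.44. That value exceeded 98.3% of all listed peaks. This upstream peak was also assigned to MIR4487, a microRNA gene, and to SLC39A13, a zinc transporter gene, so its position does not single out SPI1.

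Another peak lay inside the body of SPI1 without carrying its symbol. The peak at chr11:47380901-47381522, 18.9 kb downstream of the SPI1 start, was assigned to MYBPC3, a cardiac muscle gene next to SPI1, with 13 tags and a fold enrichment of 5.72. In the 200 kb centred on the SPI1 start there were 10 peaks in all, or 50 per Mb (24.0 to 92.0), beside 17.2 per Mb on chromosome 11, and 2 of them carried the symbol SPI1. This search for peaks near the factors, and those like it below, was chosen after values had been seen.

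RUNX1, the core-binding factor needed for the first blood stem cells, had 10 peaks along chromosome 21. The list gives RUNX1 2 starts, 161 kb apart, from which longer and shorter proteins are made. The promoter peak, at chr21:36262620-36262955, lay 1791 bp before the start nearer to the gene's end. It was the shortest of the 36 at 336 bp and held 11 tags (5.49 to 19.7) at a fold enrichment of 8.99. Tags in a peak can also be set against the background behind its listed p-value, here the mean of a Poisson distribution that gives that p-value. Peaks were listed only when their tags exceeded this background, so a ratio whose interval lies above 1 follows from the listing. For this peak the background was 1.74 tags, and the ratio of tags to background was 6.32 (3.15 to 11.3), the highest among the 36. That background was the lowest of the 36 relative to length, 0.872 times the genome-wide one, and at the genome-wide background the ratio would be 5.51.

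The peak with the highest fold enrichment among all 36 lay between the starts of RUNX1. This intron peak, chr21:36324072-36324867, was centred 97.1 kb inside the longer transcript with 20 tags (12.2 to 30.9) and a fold enrichment of 12.25, above 99.3% of the list. A neighbouring intron peak, chr21:36315339-36315999, held 14 tags at 8.99. The third peak between the starts was the promoter peak itself. Farther along the shorter transcript came an intron peak, chr21:36240580-36241078, with 13 tags at 7.35, and an exon peak, chr21:36206400-36207238, with 23 tags (14.6 to 34.5) at 7.70. The exon peak had the most tags of the 36 but stood on a background of 6.35 tags, so its ratio was 3.62.

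Upstream of RUNX1, 5 intergenic peaks lay between 67.2 and 237 kb before the outer start. They held 12 to 17 tags and fold enrichments of 7.35 to 9.14. The nearest of them, chr21:36488652-36489008, held 13 tags at 9.14 and had a ratio of 6.11 (3.25 to 10.5). The next, chr21:36500657-36501129, held 15 tags at 7.35 with a ratio of 5.34 (2.99 to 8.80). The remaining 3, at 147, 174 and 237 kb, had ratios of 3.45, 3.46 and 4.32. The intervals of all 5 overlap, so counting error alone does not separate them. The gene body, 262 kb long, held 5 peaks or 19.1 per Mb (6.21 to 44.6), beside 14.3 per Mb on chromosome 21.

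IRF8, the interferon regulatory factor that drives monocyte and dendritic cell fates, had the promoter peak closest to a start and the smallest p-value of the 36. At chr16:85931767-85932397 it spanned 370 to 1000 bp before the start and held 18 tags (10.7 to 28.4) at a fold enrichment of 11.44, above 98.3% of the list. Its score, the negative base-10 logarithm of the p-value times 10, was 77.19, above 94.8% of the list. Its FDR, 0.34%, was among the highest of the 36: in the list the FDR was larger at the smaller p-values of these peaks, from 0.13% at the lowest score, so it does not rank them by strength. The ratio of tags to background was 4.80 (2.85 to 7.59). The other IRF8 peak, chr16:85887331-85888278, lay 45.0 kb upstream with the same 18 tags over a longer stretch of 948 bp, a fold enrichment of 9.80 and a ratio of 3.20 (1.89 to 5.05).

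No peak fell inside the 23.4 kb body of IRF8, but a group of peaks lay beyond its end under another name. MIR6774, a microRNA gene inside IRF8, was given 6 peaks that lay 26.2 to 157 kb downstream of the IRF8 start, the first beginning 2417 bp past the end of IRF8. They held 11 to 14 tags and fold enrichments of 5.44 to 8.99, all below that of either IRF8 peak. Between the end of IRF8 and the next listed start, that of the non-coding gene LINC01082, there were 17 peaks in 274 kb, or 62.1 per Mb (36.2 to 99.5), beside 19.9 per Mb on chromosome 16. The other 11 were assigned to LINC01082, with 11 to 17 tags and fold enrichments of 4.90 to 11.44, and 2 of them equalled the fold enrichment of the IRF8 promoter peak. One of these, chr16:86215970-86216312, had a score of 89.41 and a ratio of 7.68, both above all 36 peaks of the factors. None of the 17 carried the symbol IRF8. The count of 2 peaks for IRF8 thus holds for the list's own assignment of peaks to genes.

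KLF4, a zinc-finger factor that promotes monocyte differentiation, had more peaks than any other factor here, and all 15 lay upstream. Its promoter peak, chr9:110253148-110253923, was centred 1485 bp before the start with 18 tags (10.7 to 28.4), a fold enrichment of 6.99 and a ratio of 3.71 (2.20 to 5.87). Behind it came an intergenic peak 21.4 kb upstream, chr9:110273249-110273716, with 14 tags at 9.80 and a ratio of 5.03 (2.75 to 8.45). Further peaks lay at 25.03 kb with 15 tags and at 75.1 kb with 17 tags. The 75.1 kb peak had the lowest ratio of the 36, 2.91 (1.69 to 4.65), over a background 1.55 times the usual one. The 11 remaining peaks were spread from 125 to 651 kb upstream, with 11 to 18 tags and fold enrichments of 6.54 to 9.80.

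The many KLF4 peaks lay in a long stretch with few genes. Between the start of KLF4 and the end of the next listed gene upstream, ACTL7B, which encodes an actin-like protein of testis, lie 1365 kb. They held 21 peaks, 15 under KLF4 and 6 under ACTL7B. That is 15.4 peaks per Mb (9.52 to 23.5), beside 16.5 per Mb on chromosome 9. The interval of this density holds the value of the chromosome, and 149 protein-coding genes, 1.36% of those with a peak, had as many peaks as KLF4 or more. Of the 15 peaks, 4 lay within 100 kb. A pair 411 and 412 kb upstream was separated by only 742 bp.

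**Figure D2:**
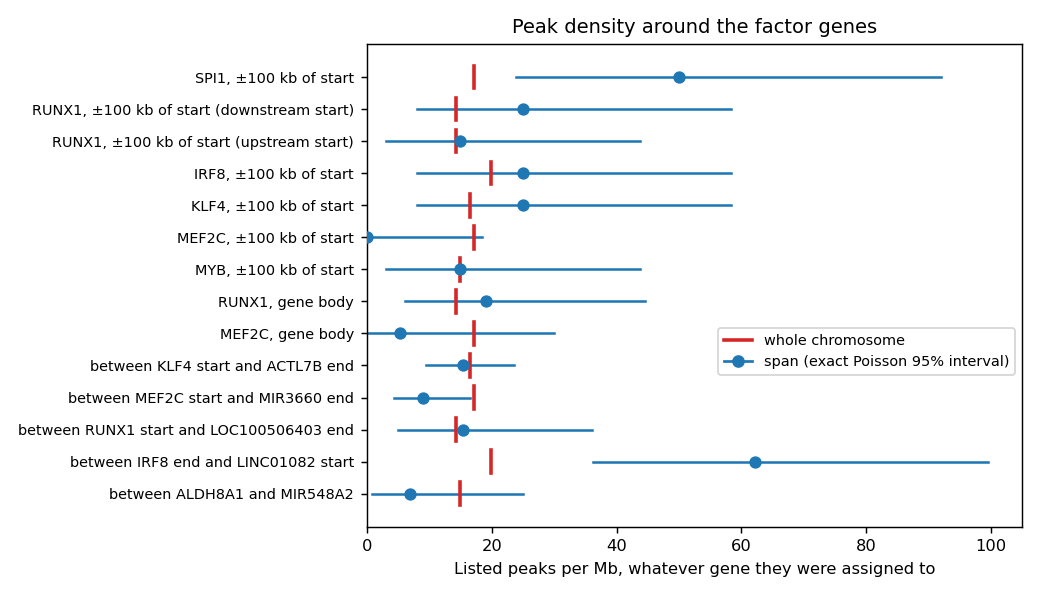
Listed peaks per Mb, whatever gene they were assigned to, in stretches around the factor genes (points, with exact Poisson 95% intervals) and on the whole chromosome (red marks). The stretch downstream of IRF8 (62.1 per Mb) and the 200 kb around the SPI1 start (50 per Mb) lie above their chromosomes, while the stretch upstream of KLF4 (15.4 per Mb) lies at its chromosome's level.

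MEF2C, a MADS-box factor with roles in lymphoid, myeloid and muscle cells, had 5 peaks but none within 100 kb of its listed start. All 5 were measured from the same start, whereas the RefSeq promoters hold 7 windows for MEF2C. Distances to its other starts are not given. In the 200 kb around the listed start there was no peak of any gene, which allows up to 18.4 per Mb by the exact Poisson 95% interval, beside 17.2 per Mb on chromosome 5. The only peak in the gene body, chr5:88014109-88014627, was an exon peak whose edge lay 52 bp inside the end of the transcript, with 11 tags (5.49 to 19.7) at a fold enrichment of 8.17. Its score of 40.35 was the lowest of the 36, close to the lowest score in the whole list, 40. The 4 intergenic peaks lay 135, 308, 370 and 372 kb upstream with 14, 15, 13 and 11 tags, and the last 2 were 754 bp apart. From the start to the gene MIR3660, 1113 kb upstream, the density was 8.99 per Mb (4.31 to 16.5), with the chromosome just above the interval.

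MYB, the progenitor factor, had 2 peaks on either side of its start on chromosome 6. The upstream peak, chr6:135488560-135489085, lay 13623 bp before the start with 17 tags (9.90 to 27.2), a fold enrichment of 7.09 and a ratio of 4.29 (2.50 to 6.87). The intron peak, chr6:135512645-135513150, lay 10452 bp inside the gene with 14 tags at 6.07, the lowest fold enrichment of the 36, and a ratio of 3.46 (1.89 to 5.81). Both stood on a raised background, 1.27 and 1.35 times the genome-wide one. The chromosome as a whole shared this: the median over the peaks of chromosome 6 was 1.31 times, and 3.01% of them were at the genome-wide background, beside 43.5% on chromosome 5, 46.4% on 9, 60.2% on 11, 72.8% on 21 and 76.4% on 16. The part of this background in the low fold enrichments of MYB was not tested.

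The 3 C/EBP genes were without an assigned peak. Peaks did lie between the listed neighbours of each, which does not place them close to a C/EBP start. CEBPA encodes the factor that commits progenitors to the granulocyte and monocyte lines. Between its listed neighbours SLC7A10, an amino acid transporter gene, and CEBPA-DT, a non-coding RNA gene that runs away from CEBPA, 1 peak was found in 76.97 kb, chr19:33751907-33752481, with 12 tags at 8.99. It was assigned to SLC7A10, 35.4 kb upstream of that gene's start. CEBPA-DT itself had a peak 3288 bp past its start, chr19:33796718-33797312, with 13 tags at 8.99.

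CEBPB, which activates inflammatory genes in macrophages, overlaps the antisense gene CEBPB-AS1, and that gene had 2 peaks. They lay at chr20:48813879-48814389 with 12 tags at 8.17 and at chr20:48814809-48815354 with 13 tags at 9.80, which is 5527 and 6475 bp before the CEBPB-AS1 start. Another peak of the 116 kb between LINC01273 and LINC01270 was assigned to LINC01273, with 15 tags at 8.99. CEBPE, a factor of late granulocyte maturation, lies in the 66.6 kb between LOC105370705 and SLC7A8, with 2 peaks. The peak at chr14:23527919-23528534, 13 tags at 8.99, was in the promoter class of LOC105370705 and of CDH24, a cadherin gene. The peak at chr14:23536830-23537348, 12 tags at 8.99, was assigned to CDH24. Distances to the C/EBP starts themselves are not given, because the list holds no start for these genes. Peak densities of their chromosomes are not given either, so the counts between neighbours say nothing particular about these genes.

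**Figure D3:**
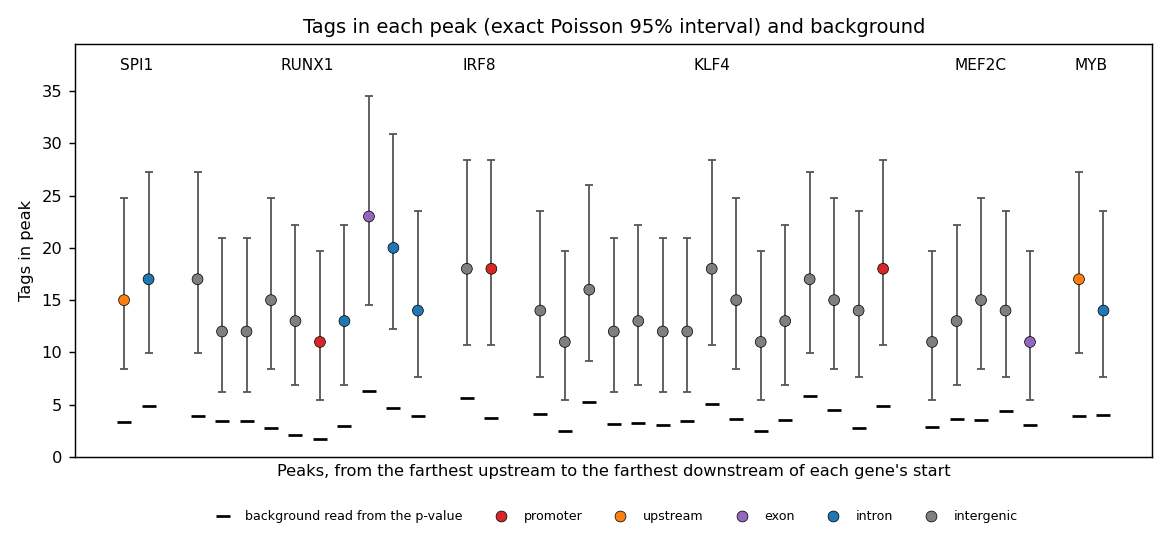
Tags in each of the 36 peaks (points, coloured by class, with exact Poisson 95% intervals) and the background read from the listed p-value (dashes), ordered within each gene from the farthest upstream to the farthest downstream peak. Tags run from 11 to 23 and the intervals of neighbouring peaks overlap widely (a peak had to exceed its background to be listed).

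Across the 6 genes the peaks were small and alike. The 36 held 11 to 23 tags with a median of 14, the same as over the whole list, and 11 was also the lowest count listed. At most 20 tags were found in 35 of them (97.2%), beside 88.2% of all peaks. The median fold enrichment was 8.17 (order-statistic 95% interval 7.35 to 8.99) and the range 6.07 to 12.25, beside a median of 7.35 over the list. The listed ratio took few values: 7.35 stood at 8 of the 36 peaks, 8.17 at 6 and 8.99 at 6, and these values are held by 13.2%, 10.9% and 8.37% of the list. A fold enrichment of at least 10 was reached by 1 peak each of SPI1, RUNX1 and IRF8, or 8.33% (2.87% to 21.8%), beside 4.63% of all peaks.

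**Figure D4:**
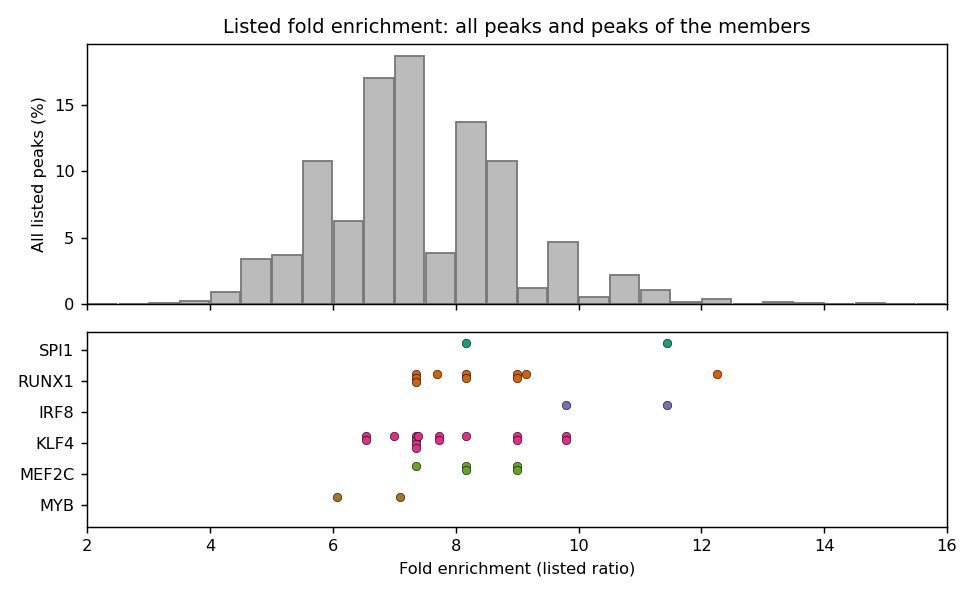
Fold enrichment as listed, for all 45360 peaks (upper panel, percent of peaks per bin of 0.5 from 2 to 16) and for the 36 peaks of the factors by gene (lower panel, 1 point per peak). No peak of SPI1, RUNX1, IRF8 or MEF2C lies below 7.35, and the MYB peaks lie at 6.07 and 7.09.

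Ratios of tags to background had a median of 3.75 (3.53 to 4.23), beside 3.65 over the list, and ran from 2.91 at KLF4 to 6.32 at RUNX1. The genome-wide background of 5.94 tags per kb applied at 27 of the 36 peaks (75%, 58.9% to 86.2%), beside 55.7% of all peaks. These 27 were 2 of 2 for SPI1 and IRF8, 5 of 5 for MEF2C, 8 of 10 for RUNX1, 10 of 15 for KLF4 and 0 of 2 for MYB. The FDR of the 36 ran from 0.13% to 0.35%.

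The relatives of the 9 factors were counted by family. Of 38 paralogs and partners outside the 9, 29 had an assigned peak, or 76.3% (60.8% to 87.0%), and the 54.9% of all protein-coding genes lies below this interval. The lists were chosen with earlier results of these data known, so the higher share is a description only. KLF genes made up 16 of the 38, and 4 of the 29 kept a peak at a fold enrichment of at least 10. In the C/EBP family, CEBPD, a C/EBP protein induced in inflammation, had a promoter peak 273 bp before its start with 27 tags at 4.82, and DDIT3, the stress-induced C/EBP protein CHOP, had one 299 bp past its start with 13 tags at 9.80. So 3 of 6 C/EBP genes had a peak (50%, 18.8% to 81.2%), beside 54.9% of all protein-coding genes. The 3 without one were those among the 9 factors. Among the interferon regulatory factors 7 of 9 had a peak, and IRF8 had the highest fold enrichment. IRF3, which answers viral nucleic acid, had a promoter peak with 13 tags at 5.72, and IRF2 one with 21 tags at 8.17.

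Of the KLF family 13 of 17 had a peak, and the promoter peaks beside that of KLF4 were at KLF10 (15 tags at 5.84), KLF16 (20 tags at 9.80) and KLF17 (22 tags at 7.60). KLF12 and KLF13 shared the highest fold enrichment of the family, 10.62, each in an intron. RUNX1, RUNX2 and RUNX3 had peaks and their partner subunit CBFB had none. RUNX1T1, counted in the same list, had peaks too, and RUNX1 alone of these genes had one in the promoter. In the MEF2 family MEF2B was without a peak, and MEF2A had 8.99, as high as MEF2C. All 3 MYB genes had a peak, with a promoter peak at MYBL2 (fold enrichment 5.72), and 8.99 in a MYBL2 intron was the highest of the family. SPIC, a relative of SPI1 in red pulp macrophages, had 10.62 at 11.3 kb upstream, and SPIB had no peak.

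Other regulators of blood cells and the targets of these factors were counted in the same way. Of 26 other haematopoietic factors 15 had a peak and 4 a promoter peak: GFI1, TAL1, NR4A1 and TFEB. Of 11 genes that the factors activate in myeloid cells 5 had a peak. CSF1R, the receptor for macrophage colony-stimulating factor, had a promoter peak with 15 tags at 7.38 and a peak at 9.80 lying 11.5 kb upstream, and ITGAM, the integrin CD11b, had a promoter peak with 14 tags at 7.35. CD14, CSF2RA, CYBB, ELANE, LYZ and MPO had none. The share of genes with a peak ran from 45.5% for these targets to 100% for the MYB family, and the background of 54.9% lay inside the interval of every list.

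**Figure D5:**
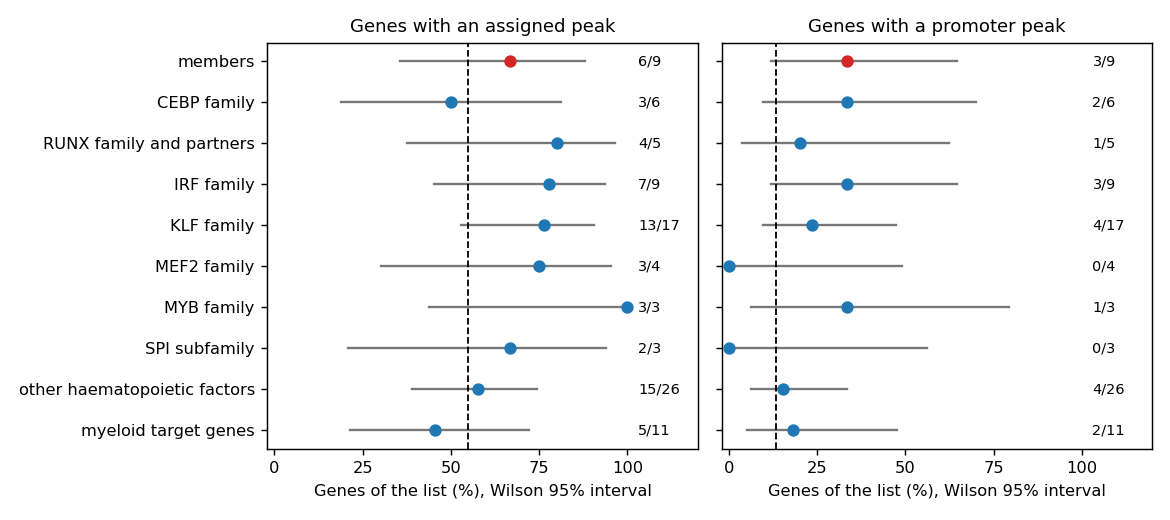
Percent of the genes in each list with an assigned peak (left) and with a promoter peak (right), with Wilson 95% intervals and the share over all protein-coding genes as a dashed line (54.9% and 13.4%). Counts stand at the right, the 9 factors are in red and are also counted in their own families, and the dashed line crosses every interval.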

How the data were processed

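C18-3OH-treated THP-1 foam cells gave 1 PAX-8 ChIP and 1 Input library, from which the authors made a list of peaks. The starting point was the deposited peak list on hg19. For each peak, the authors' list gives the count of tags, the fold enrichment as a ratio, the p-value as a score of 10 times its negative logarithm, and the FDR in percent. FastQC and hg19 are named in the processing notes of the submitters. The aligner, the peak caller and the depth are not stated in those sources.

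The table has 103443 lines, one per peak and transcript, and equal positions were counted once. The factors were matched by symbol. The base of the score was read from the list: when base 10 was taken and the p-value read as the chance of exceeding the tags, 56.5% of peaks came within 1% of one common background, beside 23.2%, 12.5% and 13.1% for the other forms tried. The median of that group was taken as the genome-wide background, and a peak was at it when within 1%, which held for 55.7%, since the group had been centred on its most frequent value and not on its median. Distances run from a peak's centre to the listed start. Symbols were matched to RefSeq genes of GRCh38.p14 by accession (15628), symbol (58) or synonym (34), and 16 were not matched. That table gave names and neighbours but no coordinates.

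The factors and gene lists were chosen with earlier results of these data known. The text names all 9 factors with their peaks, list genes with a promoter peak or the highest fold enrichment of their list, genes that share a peak with a factor, and neighbours of factors without a peak. A few results under this rule are not reported here. Other genes near a factor were named after their values were seen. Shares have Wilson and counts exact Poisson 95% intervals. The solving of the background was tested on simulated data. Alternatives were limits on fold enrichment, FDR and distance, other promoter windows, merged peaks and another form of the p-value. Calculations ran in Python 3.11.15 with scipy 1.17.1, pandas 2.3.3 and numpy 2.4.6, and plots in matplotlib 3.10.9.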

Additional observations from a re-analysis of the deposited data

How the results depend on the processing

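With a fold enrichment of at least 10, SPI1, RUNX1 and IRF8 were the 3 factors of 6 that kept a peak. They kept 3 peaks of 36 (8.33%, beside 4.63% of all peaks), with a median of 11.44 in place of 8.17. Only IRF8 kept a promoter peak, 1 of the 3 peaks (33.3% in place of 8.33%). Of the 29 relatives with a peak, 4 kept one. With a promoter limit of 1 kb, 1 factor, IRF8, had a promoter peak and the promoter share was 2.78%. Counting peaks within 100 kb of the start listed with each left 16 (44.4%, beside 73.1% of all peaks), within 20 kb 7 (19.4%, beside 37.3%), and without KLF4 21. For the counts of factors and relatives at these limits, no matching share over all protein-coding genes is given. Those counts, and the promoter share at 1 kb, therefore say nothing particular about the factors. Reading the p-value as the chance of at least the listed tags raised the median ratio of tags to background from 3.75 to 4.32. An FDR limit of 0.5% and merging peaks within 500 bp could not change the values of the factors, whose peaks have an FDR of at most 0.35% and lie at least 742 bp apart, so they say nothing about stability. The alternatives for the relatives were chosen after seeing the data. No paired analysis was possible because there was 1 ChIP and 1 Input library and no test. With an unknown depth and 11 to 23 tags per peak, genes without a listed peak cannot be called unbound.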
